A study of Mus musculus with 76 samples.

Results

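Heart tissue of mice that had a partial nephrectomy (PNx) and a transplant of cells carrying NaKtide was compared with heart tissue of mice that had the same surgery and no cells. The members are the 5 heart libraries of each of these 2 groups, chosen by the surgery and transplantation labels, which makes 10 of the 25 heart libraries and 10 of the 76 libraries of the series. All animals of the series were males of the Fox Chase SCID strain CB17/Icr-Prkdcscid/IcrlcoCrl, 12 weeks old. The first group (NaKtide cells) is labelled with a Lenti-adipo-NaKtide transplant, and the second (PNx) with no transplant. The other heart groups, of 5 libraries each, had PNx with control cells (Control cells), PNx with a Lenti-adipo-scrambled transplant (Scrambled cells), or sham surgery without a transplant (Sham). The labels do not give the transplanted cell type, the promoter that drives the lentiviral insert, the time since surgery or the time of day of collection. Nor do they state whether each library came from its own animal. The p-values therefore describe the spread among these libraries, part of which may be technical.

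The Na/K-ATPase pumps sodium and potassium across the cell membrane. It also holds the kinase Src, and release of Src starts a signalling cascade that includes the epidermal growth factor receptor and the MAP kinases. NaKtide is a peptide taken from the pump that binds Src and blocks this cascade. Loss of kidney mass puts the heart under pressure, volume and uremic load. The heart is known to answer such load with natriuretic peptides, changes in sarcomere and calcium genes, and matrix deposition. SCID mice lack working T and B lymphocytes but keep neutrophils and macrophages.

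The 10 libraries held 5495996 to 11355218 counts and 19602 to 20699 detected genes. Levels are CPM (counts scaled to a common library size by TMM), and fold changes are edgeR log2 values with their standard error (SE), positive where NaKtide cells stood higher. Heart tissue was borne out by its markers, with Myh6 at 9851 to 17530.5 CPM in these 10 libraries. The B cell gene Ms4a1 was at 0 in all 10. Other B-lineage genes were not all absent, with Ighm at 3.03 to 6.61 CPM and Cd79b at 0 to 0.599 CPM. Several libraries stood apart. PNx 1 and PNx 2 held neutrophil transcripts, PNx 4 held liver transcripts, and NaKtide cells 5 and PNx 5 held atrial transcripts (Myl7 at 1694 and 1050.1 CPM, and at most 173 CPM in the other 8). The main results that rest on these libraries are given with and without them.

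No gene passed an adjusted p of 0.05 in edgeR, out of 15091 tested (0%). The lowest adjusted p was 0.508. At an unadjusted p under 0.05 there were 1249 genes (8.28%), of which 524 were higher with NaKtide cells (3.47%) and 725 lower (4.8%). DESeq2 called 26 of 10290 genes (0.253%), 12 higher (0.117%) and 14 lower (0.136%). limma voom with quality weights called 572 of 15091 (3.79%), 247 higher (1.64%) and 325 lower (2.15%). Of the 26 DESeq2 calls, 17 were also voom calls, and 358 of the 572 voom calls were at an unadjusted edgeR p under 0.05 with the same sign. The 5 libraries of one group lay wholly above the 5 of the other for 187 genes (1.24%), with NaKtide cells above for 95 (0.63%) and below for 92 (0.61%). Leaving out PNx 1 lowered the number of genes at an unadjusted p under 0.05 from 1249 to 717 (195 lower), and leaving out NaKtide cells 4 raised it to 1982 (1018 higher), with no gene called either way.

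The genes of lowest edgeR p that stood higher with NaKtide cells include nuclear genes (Smc1a, Polr2a, Nup214, Atf7 and Crebbp) and genes of cilia, the actin skeleton and signalling (Ift172, Wipf2, Dtx4 and Plxna1). Ift172, a carrier protein of intraflagellar transport in cilia, was at 28.8, 28.4, 30.7, 22.5 and 28.1 CPM in NaKtide cells 1 to 5, and at 15.5, 16.1, 23.5, 17.4 and 20.98 CPM in PNx 1 to 5. The groups overlapped only because NaKtide cells 4 lay below PNx 3. The log2 fold change was 0.56 (SE 0.13, edgeR adjusted p = 0.508, DESeq2 adjusted p = 0.0175). Smc1a, a subunit of the cohesin ring that holds chromatin loops, was at 39.9, 45.4, 43.2, 43.7 and 49.1 CPM with NaKtide cells and at 37.9, 27.1, 32.4, 37.6 and 25.01 CPM without. Every NaKtide library lay above every PNx library (log2 0.47, SE 0.11, edgeR adjusted p = 0.508, voom adjusted p = 0.0137). Polr2a, the largest subunit of RNA polymerase II, was at 54.1, 55.0, 56.3, 51.7 and 53.1 CPM with NaKtide cells, a range narrower than its 36.5, 40.3, 48.0, 38.6 and 33.1 CPM in PNx. Here too the groups were apart (log2 0.46, SE 0.11, edgeR adjusted p = 0.508, DESeq2 adjusted p = 0.0175, voom adjusted p = 0.0195).

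Dtx4, a Deltex-family ubiquitin ligase, had the largest log2 difference of the 10 higher genes. It was at 11.7, 8.11, 10.6, 9.98 and 10.3 CPM with NaKtide cells and at 5.51, 3.94, 5.99, 5.65 and 5.27 CPM in PNx. The groups did not overlap, and the means of 10.1 ± 1.30 and 5.27 ± 0.787 CPM (SD, n = 5) gave log2 0.93 (SE 0.23, edgeR adjusted p = 0.508). For Dtx4 the DESeq2 adjusted p was 0.0582 and the voom adjusted p 0.0175. Plxna1, a semaphorin receptor, was at 37.6, 35.0, 30.9, 26.1 and 29.2 CPM with NaKtide cells and at 16.1, 23.1, 24.2, 23.2 and 21.5 CPM in PNx (log2 0.56). The nuclear pore gene Nup214 (log2 0.43), the actin regulator Wipf2 (0.51), the transcription factor Atf7 (0.57) and the acetyltransferase Crebbp (0.47) also had every NaKtide library above every PNx library. For Gcn1l1, a ribosome-bound activator of the kinase Gcn2, the groups overlapped (log2 0.56), with PNx 3 at 57.0 CPM and the other PNx libraries at 28.7 to 39.3. Among the genes that voom or DESeq2 ranked first, Dusp27, a muscle phosphatase-like protein, did not overlap (52.7 to 64.6 CPM with NaKtide cells, 31.8 to 49.6 in PNx, log2 0.48), while Ubap2l (0.31), Numa1 (0.52) and Zfyve9 (0.44) did. Without PNx 1 and 2, the log2 difference of these 14 genes was 0.28 to 0.86.

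On the GRCm38 assembly Ift172 lies on chromosome 5 (31253277 to 31291116, minus strand), Smc1a on chromosome X (152016428 to 152062694, plus strand), Polr2a on chromosome 11 (69733997 to 69758637, minus strand) and Dtx4 on chromosome 19 (12466338 to 12501454, minus strand). Counts cover whole genes, so no value refers to a single exon.

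**Figure D1:**
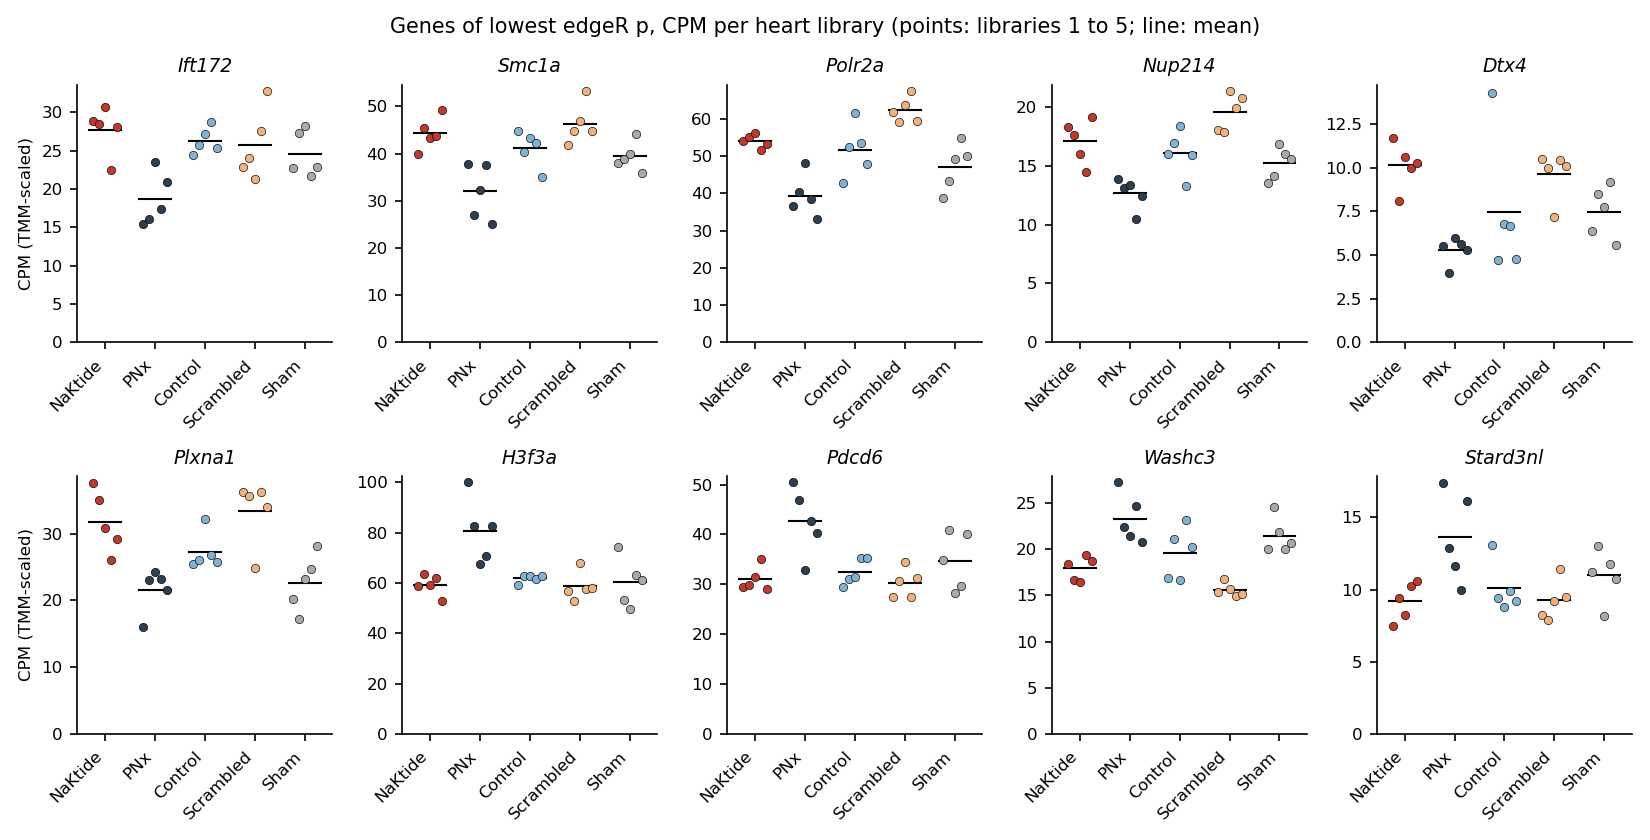
CPM of 10 genes in the 25 heart libraries, by group (points are libraries 1 to 5 from left, lines are group means, and the axes start at 0). The genes were picked from the 10 higher and 10 lower named genes of lowest edgeR p. The first 6 genes stood higher with NaKtide cells than in PNx and the last 4 lower, and in Dtx4 4 of the 5 Control cells libraries (4.71 to 6.78 CPM) lie below every NaKtide library.

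The levels in the other heart groups are given side by side. These genes were chosen for a low p between NaKtide cells and PNx, so a smaller difference from any other group is favoured by that choice, and these comparisons share the NaKtide libraries. Ift172 was at 27.7 CPM with NaKtide cells, 26.3 with control cells, 25.7 with scrambled cells, 24.6 in Sham and 18.7 in PNx (means, n = 5). Its log2 difference was 0.08 from Control cells and 0.11 from Scrambled cells. For Smc1a these were 0.11 and -0.06, for Polr2a 0.07 and -0.20, and for Dtx4 0.44 and 0.07. NaKtide cells against Control cells gave no edgeR call in 15091 genes (0%) and 206 at an unadjusted p under 0.05 (1.37%). Against Scrambled cells there was no call (0%) and 903 were at an unadjusted p under 0.05 (5.98%). Voom called 6 and 0 genes in these comparisons, and DESeq2 called 0 and 5.

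The genes of lowest edgeR p that stood lower with NaKtide cells were of a pair of kinds: broadly expressed genes with log2 differences of -0.36 to -0.57, and neutrophil and acute-phase genes with -6.59 to -6.85. H3f3a, which encodes the replacement histone H3.3, was at 58.6, 63.6, 59.2, 61.9 and 52.9 CPM with NaKtide cells and at 99.9, 82.6, 67.6, 70.7 and 82.4 CPM in PNx. The groups were apart (log2 -0.44, SE 0.11, edgeR adjusted p = 0.508, DESeq2 adjusted p = 0.0270, voom adjusted p = 0.0216). H3f3c, annotated as a processed pseudogene, gave log2 -0.56 (23.5 to 30.3 against 31.0 to 50.7 CPM), but it is nearly identical to H3f3a and the 2 rows may share reads. Washc3, a subunit of the endosomal WASH complex, was at 18.4, 16.6, 16.5, 19.4 and 18.8 CPM with NaKtide cells and at 27.3, 22.4, 21.4, 24.7 and 20.8 CPM in PNx. It too did not overlap (log2 -0.38). The calcium-binding protein gene Pdcd6 (log2 -0.46), the late endosome gene Stard3nl (-0.57), the chromatin remodeller subunit Ino80c (-0.36) and the F-box gene Fbxo4 (-0.55) overlapped between the groups. Among the voom leaders, the ribosomal genes Rpl9 (-0.43) and Rps12 (-0.62), the elongation factor gene Supt4a (-0.53) and Smim7 (-0.33) overlapped as well. PNx 1 was the highest PNx library for each of these broadly expressed genes. Without PNx 1 and 2 their log2 differences were smaller, at -0.24 to -0.45. Control, scrambled and sham hearts lay near NaKtide hearts in H3f3a, with means of 61.7, 58.6 and 60.2 CPM against 59.3 with NaKtide cells and 80.7 in PNx.

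The widest differences were in neutrophil and acute-phase genes and came from PNx 1 and PNx 2. S100a8 and S100a9 encode calprotectin, the main cytosolic protein of neutrophils, and lie next to each other on chromosome 3. Lcn2 and Hp encode the secreted proteins lipocalin 2 and haptoglobin. The RefSeq sequences (GRCm38.p6) upstream of the calprotectin start sites are shown because these genes varied together over the libraries. They were searched for the C/EBP letters TTGCNNAA and for a fixed, narrow form of the NF-kB motif, both on either strand, and capitals mark a match. S100a9 is shown from the base before its start (chr3:90695722-90695971, minus strand), and S100a8 as the 157 bases of its 250-base window that lie before the annotated gene (chr3:90668821-90668977, plus strand).
S100a9: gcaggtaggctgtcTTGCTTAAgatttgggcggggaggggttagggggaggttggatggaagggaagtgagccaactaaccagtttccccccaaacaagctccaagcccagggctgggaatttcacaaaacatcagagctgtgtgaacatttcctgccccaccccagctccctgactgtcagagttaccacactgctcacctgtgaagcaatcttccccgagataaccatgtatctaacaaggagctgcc
S100a8: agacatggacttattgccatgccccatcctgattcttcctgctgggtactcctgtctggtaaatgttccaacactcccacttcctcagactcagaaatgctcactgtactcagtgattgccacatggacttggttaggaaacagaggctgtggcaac
The C/EBP letters were found once in S100a9, at -236 from the start, and once in the Lcn2 window, at -216, and not in the S100a8 window. They occur in 9.57% of 32536 such promoter windows. The form of the NF-kB motif that was searched, matched in 1.40% of windows, was in none of the 3. Other forms of the NF-kB motif were not searched, so its absence from these windows was not tested. A match is only a match of letters.

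S100a9 was at 3.47, 0.880, 1.55, 1.64 and 1.33 CPM in NaKtide cells 1 to 5, and at 687, 347, 9.67, 1.77 and 1.35 CPM in PNx 1 to 5. PNx 4 and 5 were within the NaKtide range, so the groups overlapped. The log2 difference of -6.85 (SE 1.74, edgeR adjusted p = 0.508, DESeq2 adjusted p = 0.00143, voom adjusted p = 0.189) went to -1.31 without PNx 1 and 2. S100a8 was at 1.64, 0.293, 0.239, 1.37 and 0.513 CPM against 284, 153, 3.51, 1.29 and 0.785 CPM. Lcn2 was at 2.19, 0.586, 1.07, 1.64 and 1.33 CPM against 627, 128, 3.85, 1.77 and 1.68 CPM. Both followed the order of S100a9 over the PNx libraries, with log2 -6.74 and -6.79, and -1.24 and -0.87 without PNx 1 and 2. Hp, also made by liver, was at 2.46, 0.195, 0.119, 2.32 and 1.33 CPM against 514, 67.6, 1.37, 38.7 and 1.91 CPM. Its log2 difference was -6.59, and -3.34 without PNx 1 and 2, where PNx 4, the library with liver transcripts, held 38.7 CPM. The values near or under 1 CPM rest on few counts.

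The neutrophil list had 10 members, of which 3 passed the expression filter. Over all 10 the summed level was 1649 CPM in PNx 1, 726 in PNx 2, 20.4 in PNx 3, 5.001 in PNx 4 and 3.81 in PNx 5, and 2.35 to 7.20 in the NaKtide libraries. The neutrophil genes Ly6g and Mpo were at 0 in all 5 NaKtide libraries and also in PNx 4 and PNx 5. In PNx 1 they were at 9.35 and 4.43 CPM. Scrambled cells 3 was the only other heart library with such a level (1081 CPM summed, S100a9 at 384 CPM). Fewer cells of a type and less RNA per cell cannot be told apart in bulk tissue.

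**Figure D2:**
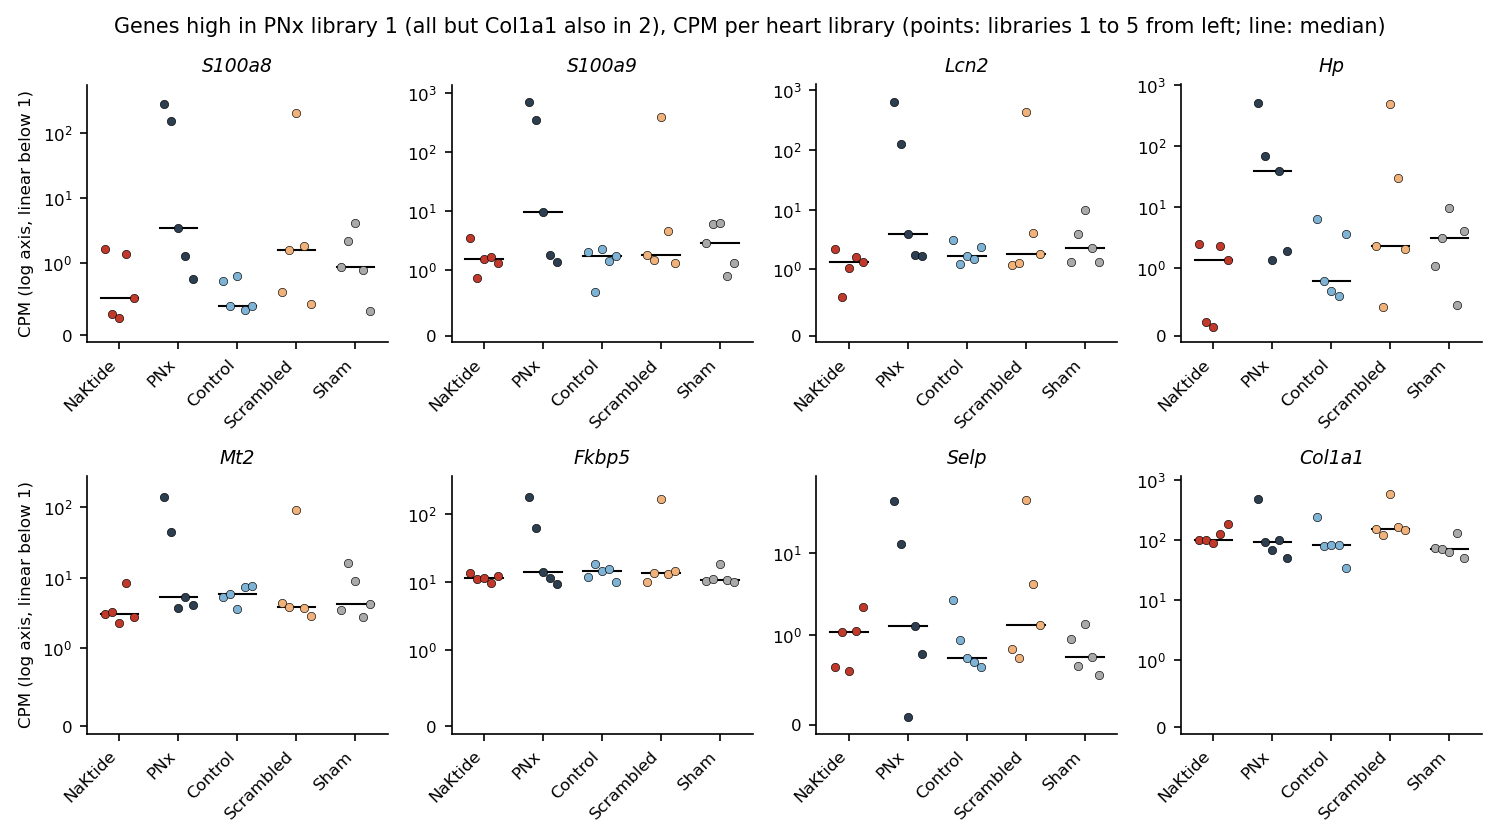
CPM of 8 genes that were high in PNx 1 and, except for Col1a1, in PNx 2, in the 25 heart libraries on a log axis that is linear below 1 (points are libraries 1 to 5 from left, lines are medians). In each panel PNx 1 is the highest point of its group and Scrambled cells 3 the highest of its own, and S100a9 drops from 687 CPM in PNx 1 to 1.35 CPM in PNx 5.

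Genes of the glucocorticoid response, of chemokines and NF-kB targets and of macrophages had the same shape. Of 14 tested glucocorticoid response genes, 12 were lower with NaKtide cells and 7 were at an unadjusted p under 0.05, all lower, with none passing the adjusted test. Lcn2 is also in this list. The median log2 difference was -0.84, against -0.01 over all 15091 genes, and -0.12 without PNx 1 and 2. Mt2, a metallothionein, was at 3.01, 3.23, 2.27, 8.47 and 2.77 CPM with NaKtide cells and at 139, 44.1, 3.68, 5.32 and 4.04 CPM in PNx (log2 -3.34, SE 1.04, and -0.14 without PNx 1 and 2). Fkbp5, a chaperone of the glucocorticoid receptor, was at 9.84 to 13.6 CPM against 179, 61.3, 14.0, 11.5 and 9.31 CPM (log2 -2.24, and 0.01 without PNx 1 and 2). For Mt2 only PNx 1 and 2 lay above the NaKtide libraries. For Fkbp5 PNx 1 and 2 lay far above them, PNx 3 just above and PNx 5 just below.

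The chemokine and NF-kB list had 18 of 26 members tested, with 14 lower, 8 of them at an unadjusted p under 0.05. Its median was -0.63, and 0.10 without PNx 1 and 2. Selp, the P-selectin of activated endothelium and platelets, was at 0.638, 1.08, 0.597, 1.09 and 2.15 CPM with NaKtide cells against 44.3, 12.9, 0.0856, 1.29 and 0.785 CPM in PNx. The log2 difference of -3.40 turned to 0.77 without PNx 1 and 2. Il33, an alarmin (log2 -1.72), and the chemokine Ccl9 (-1.89) were likewise high in PNx 1 and 2 (36.7 and 14.3 CPM, 51.3 and 20.1 CPM), and gave -0.36 and -0.28 without them. Of 14 tested macrophage markers 13 were lower, 3 of them at an unadjusted p under 0.05 (Itgam, Lyz2 and Ccr2), with a median of -0.65 that went to 0.18 without PNx 1 and 2. The macrophage list summed to 239 to 485 CPM with NaKtide cells, and to 1685 and 661 CPM in PNx 1 and 2 and 243 to 403 CPM in PNx 3 to 5. Without PNx 1 and 2, edgeR still called no gene and 541 were at an unadjusted p under 0.05. Of the 1249 genes above, 345 were among them.

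Matrix and fibroblast genes turned direction with PNx 1. Of 26 tested matrix genes 18 were lower with NaKtide cells, 3 at an unadjusted p under 0.05 (Lox, Timp1 and Postn), and the median was -0.23. Without PNx 1 it was 0.47, and without PNx 1 and 2 it was 0.52, with 4 higher at an unadjusted p under 0.05. Col1a1, the main fibrillar collagen chain, was at 99.1, 99.7, 87.2, 126 and 184 CPM with NaKtide cells and at 473, 92.9, 68.3, 98.7 and 49.4 CPM in PNx. Only PNx 1 lay above the NaKtide libraries, and the log2 difference of -0.39 (SE 0.55, edgeR adjusted p = 0.836) was 0.67 without it. Postn, made by activated fibroblasts, was at 22.1 to 58.2 CPM against 408, 66.9, 18.7, 41.3 and 22.9 CPM (log2 -1.79, and 0.26 without PNx 1 and 2). The fibroblast markers had a median of -0.24 over 12 genes, and 0.43 without PNx 1 and 2. In the TGF-beta pathway (20 tested, median -0.02) Smad3, a signal transducer, was at 23.3, 30.7, 19.0, 22.3 and 29.1 CPM with NaKtide cells and at 11.1, 13.1, 18.7, 16.3 and 19.9 CPM in PNx, with PNx 5 above NaKtide cells 3 (log2 0.65, SE 0.21, edgeR adjusted p = 0.545).

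**Figure D3:**
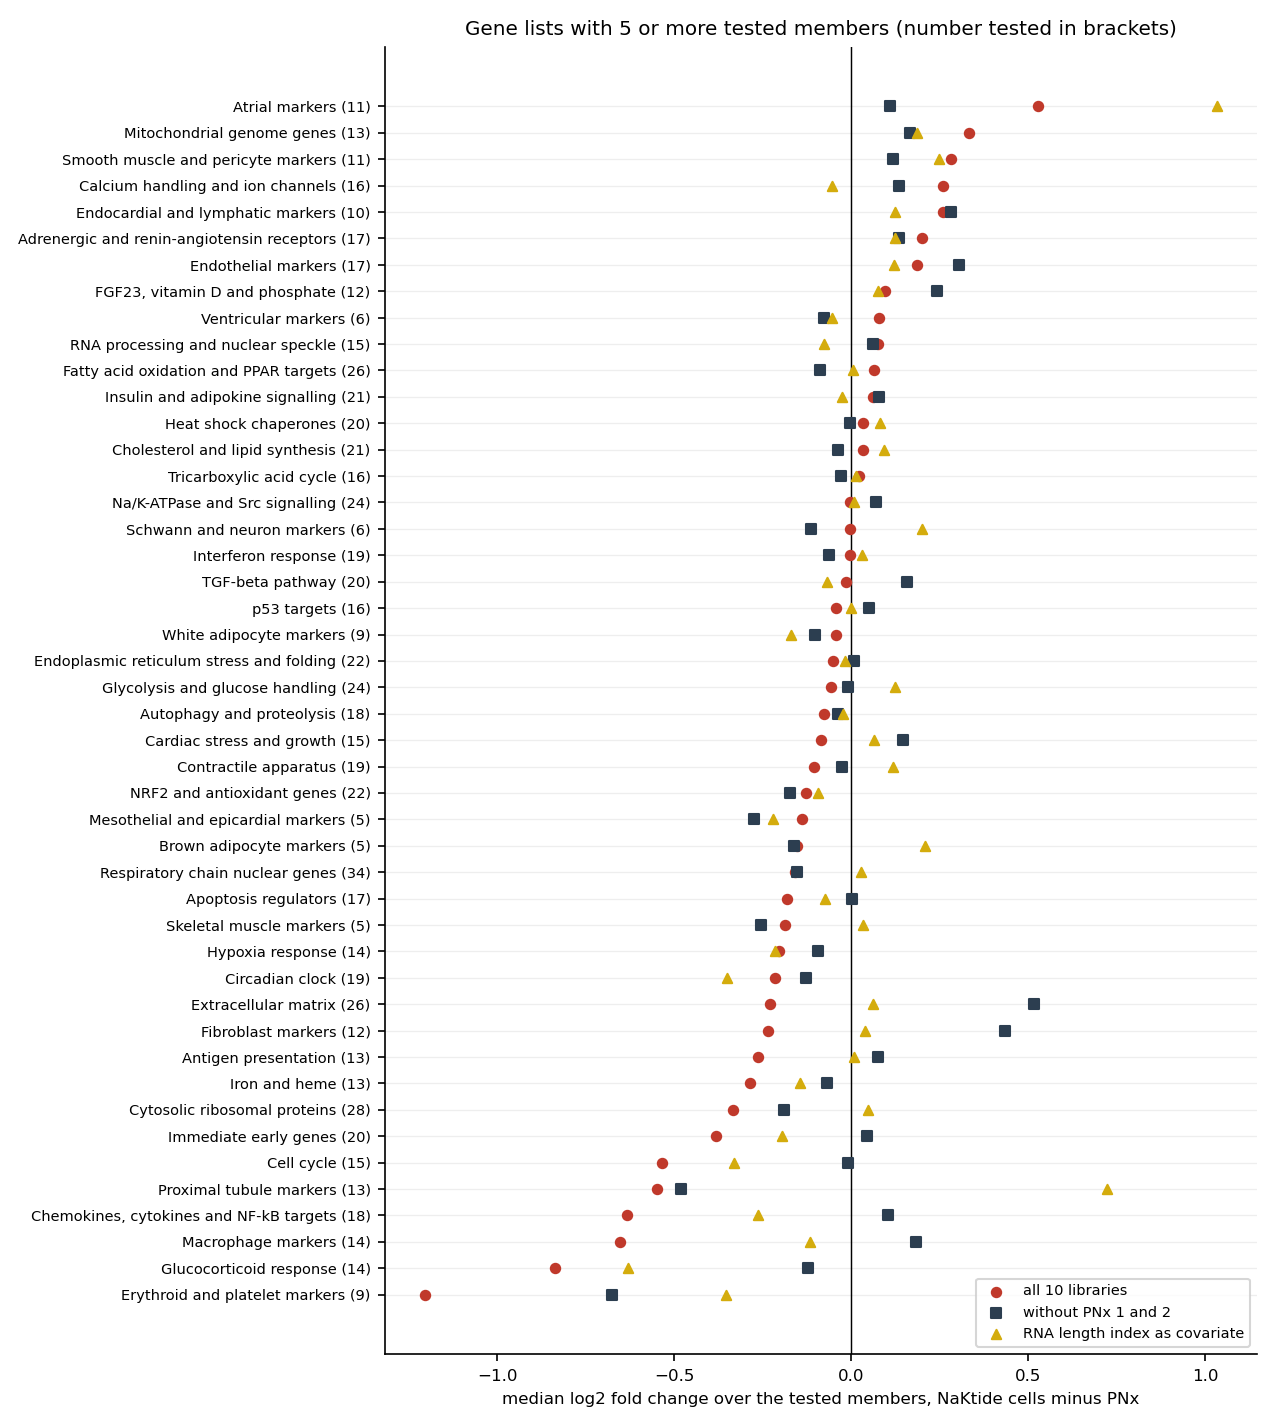
Median log2 difference between NaKtide cells and PNx over the tested members of each gene list with 5 or more of them (circles), the same without PNx 1 and 2 (squares), and with an RNA length index as covariate (triangles). Without PNx 1 and 2 the glucocorticoid list moves from -0.84 to -0.12 and the matrix list from -0.23 to 0.52, and with the covariate the ribosomal list moves from -0.34 to 0.05.

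Red cell genes were lower with NaKtide cells, and here the groups did not overlap for 3 of 9 tested genes. Over all 15091 genes, 92 (0.61%) had every NaKtide library below every PNx library. Hbb-bt, an adult beta globin gene, was at 527, 540.1, 463, 539.5 and 541 CPM with NaKtide cells and at 2741, 1472, 573, 950.2 and 1116 CPM in PNx. All 5 NaKtide libraries lay in a narrow range below the lowest PNx library, PNx 3. The log2 difference was -1.39 (SE 0.44, edgeR adjusted p = 0.545). Hbb-bs, its neighbour on chromosome 7 and so similar that reads may be shared, was at 735 to 862 CPM against 863 to 3647 CPM (log2 -1.26). Alas2, the first enzyme of heme synthesis in red cell precursors, was at 20.4, 23.7, 17.9, 12.8 and 18.5 CPM against 169, 63.5, 23.9, 29.4 and 43.0 CPM (log2 -1.81, SE 0.61), with the highest NaKtide library just below the lowest PNx library. All 9 tested genes of the erythroid and platelet list were lower and 5 were at an unadjusted p under 0.05 (median -1.20). The median was -0.68 without PNx 1 and 2 and -0.35 with the RNA length index, which is described with the length results, in the fit, and in either case 0 genes were at an unadjusted p under 0.05. The list summed to 3362 to 4040 CPM with NaKtide cells and to 3867 to 17764 CPM in PNx, and its part in other results was not tested. Sham hearts had a higher mean still in Hbb-bt (1979 CPM, libraries at 720 to 3429 CPM). Control cells had a mean of 773 CPM (360 to 1184 CPM) and Scrambled cells 778 CPM. Scrambled cells 3 was at 1736 CPM and the other Scrambled libraries at 477 to 625 CPM, near the NaKtide range.

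Liver transcripts separated the groups through 1 library. The list of thymus, lung and liver genes had 4 of 10 members tested, all of liver, with a median of -4.20 that turned to 0.64 without PNx 4. Ttr, a thyroxine carrier, was at 92.6 CPM in PNx 4, 0.171 to 2.33 CPM in the other PNx libraries and 0.205 to 5.33 CPM with NaKtide cells. Apoa1 and Serpina1a were at 143 and 82.8 CPM in PNx 4 and at most 7.93 CPM in the other 9 libraries.

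**Figure D4:**
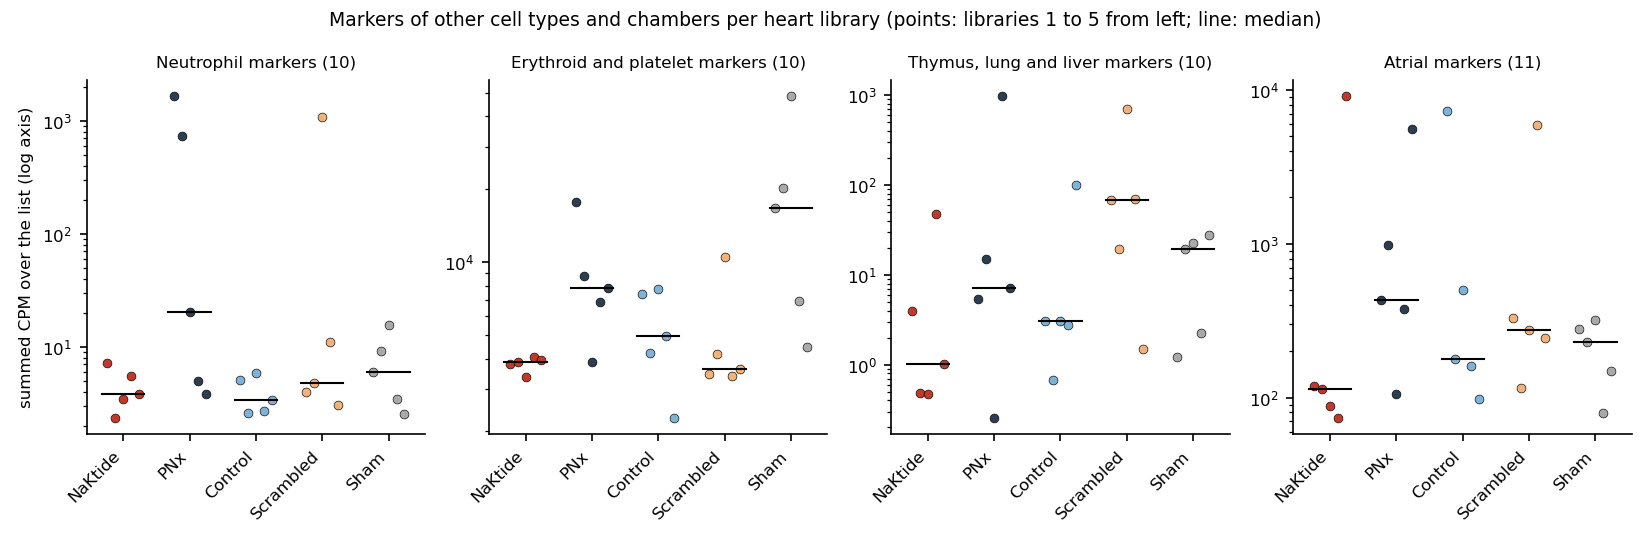
Summed CPM of 4 marker lists in each heart library on a log axis (points are libraries 1 to 5 from left, lines are medians, and the number of list members is in brackets). Neutrophil markers stand out in PNx 1 and 2 and Scrambled cells 3, liver markers in PNx 4 (981 CPM) and Scrambled cells 3 (712 CPM), and atrial markers in 1 library each of NaKtide cells, PNx, Control cells and Scrambled cells.

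Sarcomere genes differed little. Of 19 tested contractile genes 8 were higher and 11 lower with NaKtide cells (median -0.10, and 0.12 with the length index), 3 of them higher at an unadjusted p under 0.05 and none passing the adjusted test. Myh6, the fast alpha myosin of the adult mouse heart, was at 15552, 15663, 16692, 13892 and 17530.5 CPM with NaKtide cells and at 9851, 14914, 15023, 13107 and 12759.9 CPM in PNx. The groups overlapped, PNx 1 was the lowest, and the log2 difference was 0.27 (SE 0.13, edgeR adjusted p = 0.598). Myh7, the slow beta myosin that rises in stressed mouse hearts, was at 4647, 4449, 4691, 5342 and 5827 CPM against 3222, 4027, 4478, 4884 and 3361 CPM (log2 0.32, SE 0.19, edgeR adjusted p = 0.640, and 0.52 with the length index). Neither myosin passed the test. Titin (Ttn) gave log2 0.57 (0.32 with the length index) and the M-band gene Myom2 0.31, both with overlap.

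Natriuretic peptides had no difference that held. Nppb was at 266, 254, 284, 231 and 353 CPM with NaKtide cells and at 599, 314, 249, 429 and 293 CPM in PNx, with overlap (log2 -0.44, SE 0.27, edgeR adjusted p = 0.641, -0.20 without PNx 1 and 2 and -0.15 with the length index). Nppa was at 43.0, 31.7, 23.5, 7.65 and 2287 CPM against 342, 357, 28.5, 151 and 1511 CPM. The libraries NaKtide cells 5 and PNx 5 were those with atrial transcripts. The log2 difference was 0.00 (SE 1.34), and -3.04 without the heart libraries that held Myl7 above 500 CPM. Over the 11 atrial markers the median was 0.53, and -1.90 without those libraries, so the direction depended on them. Atrial markers summed to 9103 CPM in NaKtide cells 5 and 5603 in PNx 5, and to 73.9 to 987 CPM in the other 8.

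Among 15 tested genes of cardiac stress and growth, 2 were higher and 1 lower at an unadjusted p under 0.05. Their median of -0.09 turned to 0.14 without PNx 1 and 2 and to 0.06 with the length index. Gata4, a cardiac transcription factor, was at 158, 143, 146, 156 and 145 CPM with NaKtide cells and at 76.8, 115, 134, 137 and 122 CPM in PNx. The groups did not overlap (log2 0.36, SE 0.14, edgeR adjusted p = 0.578), and the log2 difference was 0.20 without PNx 1 and 2. Mef2c, another cardiac transcription factor, gave 0.46 (0.12 with the length index) and the stretch-responsive Ankrd1 -0.35 (-0.14 without PNx 1 and 2), both with overlap. Fhl2, a LIM protein of the sarcomere named after its values were seen, had every NaKtide library below every PNx library (log2 -0.23). Of 16 calcium handling and ion channel genes 14 stood higher (median 0.26), none at an unadjusted p under 0.05. The median was -0.05 with the length index.

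The sodium pump and Src cascade, which NaKtide is meant to act on, differed about as much as other genes. Of 24 tested genes 12 were higher and 12 lower (median -0.00), 1 each way at an unadjusted p under 0.05. Src was at 5.93, 5.96, 7.04, 8.20 and 10.1 CPM with NaKtide cells and at 7.19, 4.84, 4.96, 2.42 and 5.94 CPM in PNx. PNx 4 was lowest, the groups overlapped, and the log2 difference was 0.54 (SE 0.26, edgeR adjusted p = 0.593). The beta1 subunit gene Atp1b1 was at 129.8 to 214 CPM with NaKtide cells and at 167 to 209.7 CPM in PNx, with overlap (log2 -0.08, SE 0.18, edgeR adjusted p = 0.904). RNA levels do not measure Src binding or activity.

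In the smooth muscle and pericyte list 9 of 11 genes were higher with NaKtide cells and 2 lower, 3 of the higher at an unadjusted p under 0.05 (median 0.28, and 0.12 without PNx 1 and 2), and none passed the adjusted test. Pdgfrb, the growth factor receptor that marks pericytes and also fibroblasts, was at 59.0, 67.5, 73.4, 76.5 and 66.9 CPM with NaKtide cells and at 43.6, 40.2, 58.4, 50.3 and 32.9 CPM in PNx. The groups did not overlap (log2 0.61, SE 0.20, edgeR adjusted p = 0.545). The log2 difference was 0.55 without PNx 1 and 2, 0.34 from Control cells and 0.11 from Scrambled cells. Cspg4, the pericyte proteoglycan NG2, was at 19.97, 21.99, 28.4, 22.002 and 27.4 CPM against 17.3, 14.3, 19.2, 21.6 and 10.9 CPM (log2 0.52), and Notch3 gave 0.61 (0.27 with the length index), both with overlap. Endothelial markers had 11 of 17 higher (median 0.19), none at an unadjusted p under 0.05.

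Energy genes split by genome. All 13 protein-coding genes of the mitochondrial genome were higher with NaKtide cells (median 0.33), 1 at an unadjusted p under 0.05, and 30 of 34 nuclear respiratory chain genes were lower (median -0.16), 1 at an unadjusted p under 0.05 (Sdhd, -0.26). These sign counts compare with 48.7% higher and 51.3% lower over all tested genes, and genes of 1 pathway are not independent. mt-Atp8, an ATP synthase subunit, was at 2947, 2466, 3288, 1702 and 348 CPM with NaKtide cells and at 173, 627, 1089.5, 1252 and 711 CPM in PNx. NaKtide cells 5 lay within the PNx range (log2 1.48, SE 0.61, edgeR adjusted p = 0.578). Mitochondrial counts made up 17.99% ± 3.22 of the NaKtide libraries and 15.2% ± 4.02 of PNx (SD, n = 5, exact permutation p = 0.286, adjusted over 4 library measures 0.381). PNx 1 was lowest at 8.72%. PNx 2 to 5 held 15.2% to 19.8%, all above NaKtide cells 5 at 12.6%. The median of the mitochondrial genome genes was 0.20 without PNx 1 and 0.17 without PNx 1 and 2. The muscle phosphofructokinase gene Pfkm did not overlap (849 to 923 against 494 to 824 CPM, log2 0.27), while Ldha (-0.30) and Pgk1 (-0.22), which act later in glycolysis, were lower with overlap. Fatty acid oxidation genes had 18 of 26 higher (median 0.06), none at an unadjusted p under 0.05.

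All 28 cytosolic ribosomal protein genes were lower with NaKtide cells, 1 at an unadjusted edgeR p under 0.05 and 12 called by voom. The median was -0.34, and -0.19 without PNx 1 and 2. Rps3 was at 217, 215, 214, 330.0 and 303 CPM with NaKtide cells and at 424, 319, 261, 307 and 333 CPM in PNx. NaKtide cells 1 to 3 were low and alike, and NaKtide cells 4 and 5 were within the PNx range (log2 -0.36, SE 0.16, edgeR adjusted p = 0.579).

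The difference followed transcript length over the whole table. The annotated exon length of a gene and its log2 difference had a Spearman rho of 0.466 over 15091 genes, which are not independent and share the 10 libraries. In the shortest quartile of genes (up to 2059.5 bases) the median difference was -0.19, with 15 higher and 370 lower at an unadjusted p under 0.05. In the longest (from 6379.5 bases) it was 0.16, with 333 higher and 52 lower. Of the voom calls, 191 of 247 higher genes were in the longest quartile and 232 of 325 lower genes in the shortest, and 172 of the 325 had predicted-gene or pseudogene names. The RNA length index, the mean log2 CPM of the shortest quartile minus that of the longest, was -0.92, -1.01, -1.02, -0.25 and -0.54 in NaKtide cells 1 to 5 and -0.09, -0.55, -0.72, -0.28 and -0.43 in PNx. NaKtide cells 1 to 3 were lower than every PNx library, and the group means did not pass (difference -0.33, exact permutation p = 0.127, adjusted 0.365, smallest possible 0.00794).

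The index is made from the short and long genes of these same counts. A loss of the length trend with the index in the fit was therefore fixed in advance, and lists of mostly short or long genes move with it. With the index as a covariate, rho was -0.04, the ribosomal median was 0.05, the mitochondrial genome median 0.19 and the nuclear respiratory chain median 0.03. edgeR called no gene then, with a lowest adjusted p of 0.114, and 428 of the 1249 genes were still at an unadjusted p under 0.05. Smc1a (0.51), Ift172 (0.52), Dtx4 (1.001), Pdgfrb (0.54) and H3f3a (-0.47) had differences near their values above. Of the 100 named genes, 45 had a difference smaller by over 1.5 times with the same sign, 4 a larger one, and 1 changed sign. Among them Plxna1 went from 0.56 to 0.36, Atf7 from 0.57 to 0.37, Numa1 from 0.52 to 0.32, Zfyve9 from 0.44 to 0.23, Supt4a from -0.53 to -0.21, Rpl9 from -0.43 to -0.17 and Rps12 from -0.62 to -0.23. Against Scrambled cells the same quartiles ran the other way, from 0.16 in the shortest to -0.18 in the longest, and against Control cells they were flat (0.02 to -0.00). What sets the index was not tested.

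**Figure D5:**
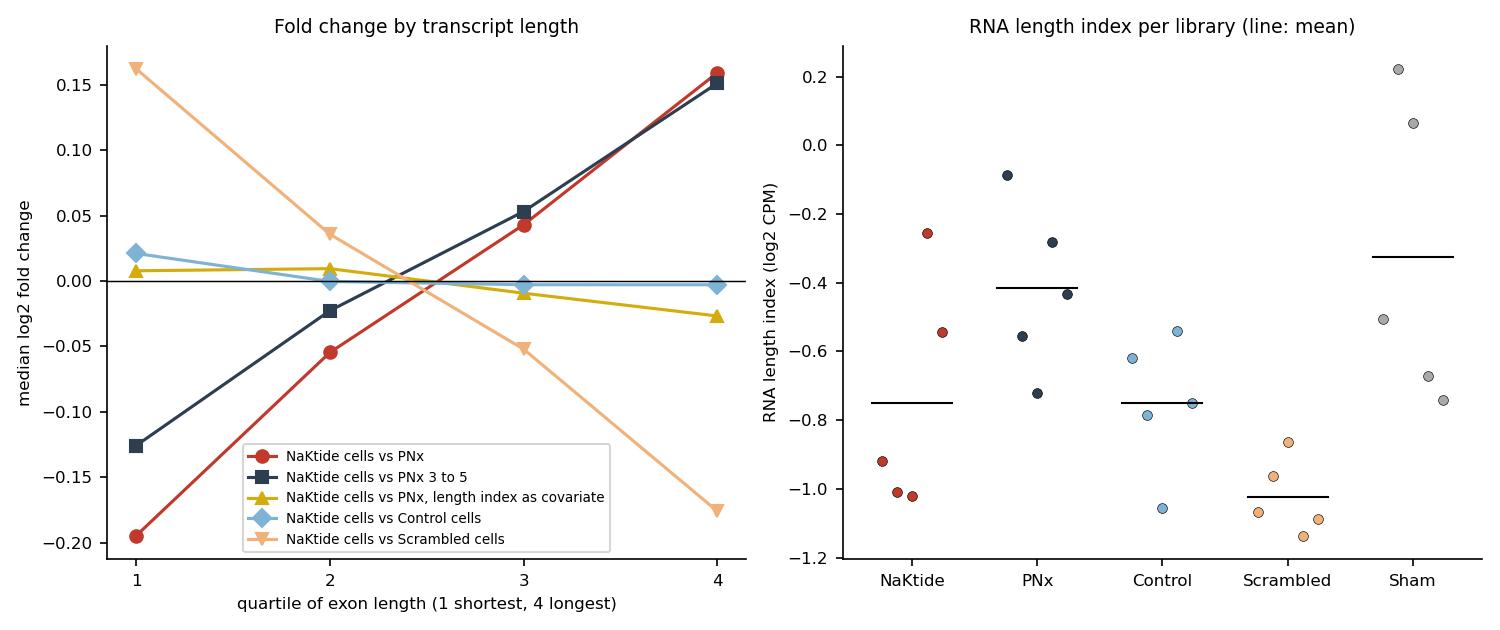
Left, median log2 difference of tested genes by quartile of exon length for NaKtide cells against PNx (all libraries, without PNx 1 and 2, and with the index as covariate), Control cells and Scrambled cells. Right, the RNA length index of each heart library with the group mean. The line against PNx climbs from -0.19 to 0.16, and 3 NaKtide libraries lie below all PNx libraries.

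Of 19 clock genes 14 were lower with NaKtide cells (median -0.22). Clock, a core activator of the circadian loop, was at 45.2, 43.9, 39.6, 18.3 and 19.3 CPM with NaKtide cells and at 14.1, 21.7, 22.5, 25.5 and 24.004 CPM in PNx. NaKtide cells 1 to 3 stood above all PNx libraries, and NaKtide cells 4 and 5 did not (log2 0.63, SE 0.26, edgeR adjusted p = 0.578, and 0.11 with the length index). Rora, a nuclear receptor of the loop, gave 0.45 with overlap. Named after their values were seen, the activators Arntl (log2 1.14) and Npas2 (1.35) stood higher and the repressors Per2 (-1.43) and Ciart (-1.09) lower, none at an unadjusted p under 0.05.

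The stress, autophagy, apoptosis and interferon lists had medians of -0.18 to 0.03. Of 22 NRF2 and antioxidant genes 18 were lower (median -0.13), 3 at an unadjusted p under 0.05. Gpx1, a glutathione peroxidase, was at 54.8 to 109 CPM against 72.7 to 308 CPM (log2 -1.04, and -0.27 with the length index), and Hmox1, heme oxygenase 1, gave -0.80. Heat shock genes had a median of 0.03 over 20 genes, with Hsph1 at 0.44, and folding and endoplasmic reticulum stress genes -0.05 over 22, with Herpud1 at -0.48. In the autophagy list (18 tested, median -0.08) Atg5, needed to extend the autophagosome membrane, was at 16.3, 15.0, 12.9, 9.57 and 12.4 CPM with NaKtide cells and at 16.5, 16.1, 17.5, 17.6 and 16.8 CPM in PNx. PNx was tight and only NaKtide cells 1 reached it (log2 -0.35, SE 0.11, edgeR adjusted p = 0.545, and -0.37 without PNx 1 and 2). Of 17 apoptosis regulators 12 were lower (median -0.18, and 0.00 without PNx 1 and 2), with 1 higher and 3 lower at an unadjusted p under 0.05. Bcl2, which blocks apoptosis, gave 0.54, the death-promoting Bid -1.59 and the mitophagy gene Bnip3 -0.60, with 0.36, -0.63 and -0.24 without PNx 1 and 2. The death receptor gene Fas, in the list of p53 targets, gave -1.20, with 39.1 CPM in PNx 1, and -0.20 without PNx 1 and 2. Interferon genes (19 tested, median -0.00) had none at an unadjusted p under 0.05.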

How the data were processed

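RNA from flash-frozen heart was extracted (Qiagen RNeasy Plus Universal Kit) and sequenced as paired reads of 50 bases, per the labels' protocols. The authors deposited 1 table of raw counts per gene (54232 genes, 76 libraries). The submitters' processing notes name Trimmomatic 0.38, HISAT2 2.1.0, DESeq2 and GRCm38, with no role or order. The counting tool is not given in the sources used here, nor is the strand setting, so reads of antisense or overlapping genes cannot be told apart. Of the gene identifiers, 54165 were found in GENCODE M21 (GRCm38), which gave symbols, positions and exon lengths.

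All 25 heart libraries were fitted together by group with edgeR 4.0.16 (R 4.3.3): filterByExpr, TMM scaling, quasi-likelihood test, Benjamini-Hochberg adjustment over 15091 genes, threshold 0.05. Alternatives were DESeq2 1.42.0, limma 3.58.1 voom with quality weights, DESeq2 size factors, no filter, only the libraries compared, a replicate block, the RNA length index as covariate, libraries with Myl7 above 500 CPM left out, and each library left out. Leaving out PNx 1 and 2 together was chosen after seeing the data. Library measures were compared by exact two-sided permutation tests over 252 splits. The edgeR step was tested on simulated data.

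The members and the 49 gene lists were chosen with earlier results of these data known. Named genes were the 10 higher and 10 lower of lowest edgeR p that had a mean log2 CPM (prior count 2) of 2 or more, predicted genes left out, the first 5 each way in voom, the first 6 in DESeq2, fixed genes (Myh6, Myh7, Nppa, Nppb, Col1a1, Src, Atp1b1 and others not reported here), and up to 3 genes per list at an unadjusted p under 0.05.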

Additional observations from a re-analysis of the deposited data

Results flagged for a closer look

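In 8 of 82 groups of 5 values, 1 library stood apart from the other 4 of its group by Dixon's test (critical value 0.71). Chance gives about 1 in 20, but many of the genes were chosen for a low p in these same libraries. The share therefore cannot be set against chance. The groups did not cover every named gene, and Ttr, high in PNx 4 (92.6 CPM, next 2.33), was not among them. PNx 1 was high in Lcn2 (627 CPM, next 128), Hp (514 CPM, next 67.6) and Col1a1 (473 CPM, next 98.7) and low in Zfyve9 (16.3 CPM, next 22.8). NaKtide cells 5 was high in Nppa (2287 CPM, next 43.0), as was PNx 5 in its group (1511 CPM, next 357). NaKtide cells 5 was also high in Fbxo4 (8.62 CPM, next 6.09). NaKtide cells 4 was low in Numa1 (62.2 CPM, next 87.2).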

How the results depend on the processing

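edgeR called no gene against PNx under any scaling, filter, covariate, block or left-out library that was run, with lowest adjusted p-values of 0.0792 to 0.868 when 1 library was left out. DESeq2 called 26 genes and voom with quality weights 572 against PNx. Voom called 6 against Control cells, and DESeq2 called 5 against Scrambled cells. The cause was not tested. Genes at an unadjusted p under 0.05 numbered 1249, and 848 to 1982 without 1 library other than PNx 1 (717). They numbered 1856 with no filter, 1854 with the length index and 541 without PNx 1 and 2. Leaving out NaKtide cells 3 gave 475 lower genes.

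Same-numbered libraries of the 2 groups had correlations of -0.24 to 0.49, positive in 4 of 5 pairs (mean 0.22, against -0.04 over 20 pairs of different number). Since 1 pair was negative and 2 of 5 NaKtide libraries correlated best with their own number, the libraries were treated as sharing only a number, and pairing was not established either way. The replicate block gave 0 calls and 992 genes at an unadjusted p under 0.05.

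With 1 library left out, the difference in total counts was 980156 to 2444960, in genes detected -70.75 to 203.5, in mitochondrial percent 1.21 to 4.17 (exact permutation p 0.0714 to 0.556), and in the length index -0.46 to -0.25. The exact permutation p for total counts was 0.0159 without PNx 3, and that for the length index 0.0397 without NaKtide cells 4.

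Col1a1 turned to 0.30 in voom, 0.082 with the block, 0.24 with the length index and 0.74 without PNx 1 and 2 (-0.61 to 0.67 with 1 library out). Atp1b1 was 0.072 in voom (-0.16 to 0.016). Nppa was -2.70 in voom, -0.0024 with no filter, -0.0030 with only the libraries compared, -1.18 with the block, -3.04 without the atrial libraries and -0.23 without PNx 1 and 2 (-4.16 to 1.12). Without PNx 1 and 2, Timp1 was 0.30, Postn 0.26, Pi16 0.45, Itgam 0.11, Ccr2 0.18, Csf3r 0.044, Fkbp5 0.010 and Selp 0.77. With 1 library out, Ttr ran from -5.91 to 0.036, Apoa1 from -6.90 to 1.33 and Serpina1a from -6.89 to 0.63, each turning without PNx 4. The other named genes kept their sign in each alternative that gave them a value (93 of 100 with only the libraries compared). Genes with no overlap numbered 120 to 391 higher and 86 to 420 lower with 1 library out, of 15282 to 15360 tested. Groups of 4 and 5 libraries separate more easily by chance than 2 groups of 5. These counts therefore cannot be set against the 95 and 92 with all libraries. Depth limits genes near 1 CPM.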
